A study of Homo sapiens with 2 samples.

Results

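The genes described here serve protein folding in the endoplasmic reticulum (ER), the compartment where secreted proteins are made, and the unfolded protein response that adjusts this capacity. The list of 39 genes was taken by gene name, also where a name was joined with that of a neighbour. It was compared with 24991 gene names present in both libraries of the series. The list was split by role into 14 chaperones and folding helpers, 8 disulfide enzymes, 8 sensors and transcription factors, and 9 genes of ER-associated degradation. RNA was sequenced from PLC cells, an established human liver cancer line, with 1 library per condition. The EV library came from cells with the empty vector, labelled as wild type, and the PRSS35 library from cells over-expressing PRSS35, a secreted protease. Neither received a treatment. Both lines were made by lentiviral infection and puromycin selection, so both carry a vector and its resistance gene. In RNA from whole cultures, a change in every cell and a change in some of the cells cannot be told apart.

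As background, nascent secretory proteins are bound in the ER by HSPA5, HSP90B1 and the lectins calnexin and calreticulin, and their disulfides are set by the protein disulfide isomerase family. When unfolded protein accumulates, the membrane sensors ATF6, IRE1 (ERN1) and PERK (EIF2AK3) are activated. ATF6 is cut in the Golgi by the site-1 and site-2 proteases, and IRE1 splices the XBP1 mRNA, which yields factors that switch on chaperone genes. Proteins that fail to fold are sent back to the cytosol and degraded, a route known as ER-associated degradation. Hepatocytes secrete most plasma proteins and depend heavily on this machinery.

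Many of these genes share a control sequence near their start, which is shown here because it is the sequence by which ATF6 and XBP1 are known to act on them. RefSeq promoter windows, each from 250 bases before a start to 50 bases from it, were found for 36 of the 39 genes, and the genes not matched were PDIA3, DERL1 and DERL3. The ER stress element was searched on both strands as CCAAT and CCACG with 9 bases between them. It was present in 27 of 35116 windows (0.0769%), which belong to 25 gene symbols, and 7 of these symbols are members. The second form of the element, ATTGG and CCACG with 1 base between them, was in 19 windows (0.0541%) and in 3 members. The sites are printed in the direction of the element, and capitals mark its fixed bases.
HSPA5: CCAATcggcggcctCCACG
CALR: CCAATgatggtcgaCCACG
CANX: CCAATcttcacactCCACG
HSP90B1 upstream site: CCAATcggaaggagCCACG
HSP90B1 downstream site: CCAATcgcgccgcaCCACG
PDIA6: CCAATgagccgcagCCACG
CRELD2: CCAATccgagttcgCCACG
XBP1: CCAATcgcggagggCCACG
HERPUD1, second form: ATTGGgCCACG
HYOU1, second form: ATTGGaCCACG
SDF2L1, second form: ATTGGtCCACG

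The HSPA5 site lay from -66 to -48 relative to the start, where 0 is the first transcribed base. The HERPUD1 site lay from -117 to -107. HYOU1 had its site at -185 to -175 and again at -79 to -69, both on the opposite strand. For CANX the same site appeared in the windows of 3 annotated starts. Both windows below are read in the direction of transcription, come from RefSeq and had 1 exact match each in GRCh37, the assembly of hg19, at chr9:128003573-128003872 on the minus strand for HSPA5 and chr16:56965804-56966103 on the plus strand for HERPUD1.
HSPA5: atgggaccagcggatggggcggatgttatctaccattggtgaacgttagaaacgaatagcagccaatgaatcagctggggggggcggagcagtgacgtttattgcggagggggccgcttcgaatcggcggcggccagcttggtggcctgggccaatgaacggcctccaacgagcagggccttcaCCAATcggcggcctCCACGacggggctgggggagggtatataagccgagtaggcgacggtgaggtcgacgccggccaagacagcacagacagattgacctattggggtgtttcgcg
HERPUD1: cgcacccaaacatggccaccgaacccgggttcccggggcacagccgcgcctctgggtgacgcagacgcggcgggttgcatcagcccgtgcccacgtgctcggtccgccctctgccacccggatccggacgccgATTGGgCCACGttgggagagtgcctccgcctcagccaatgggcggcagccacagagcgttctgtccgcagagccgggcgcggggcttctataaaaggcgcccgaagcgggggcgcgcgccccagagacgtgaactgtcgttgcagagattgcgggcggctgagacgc

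**Figure D1:**
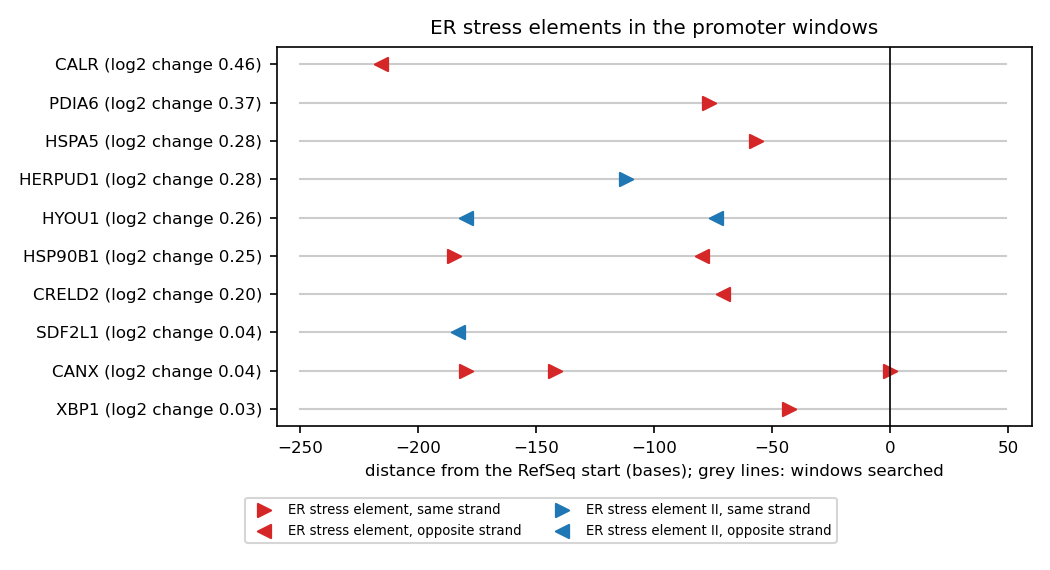
Position of the ER stress element in its first form (red) and second form (blue) in the promoter windows of the 10 members that hold one, with the distance from the RefSeq start on the horizontal axis and the gene with its log2 change on the vertical axis. Triangles point right where the element lies on the strand of transcription and left where it lies on the other, and the 3 CANX marks are 1 site seen from 3 annotated starts.

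Values are FPKM, a fragment count corrected for the length of the transcript and for library size, so levels may be compared between genes. Each is given with the lower and upper bound that Cufflinks put around it, which cover error within a library and leave out variation between cultures. With 1 library per condition no difference could be checked in replicates, and none carries a p-value. A difference is the log2 ratio of PRSS35 to EV with 1 FPKM added to each value, and a gene is described as higher or lower beyond its intervals where the bounds of the libraries do not overlap. PRSS35 itself was at 0.643 FPKM in EV and 1836 FPKM in PRSS35, in keeping with the labels. Over 190 loci with whole fragment numbers in both libraries, 1 fragment was worth the same FPKM in EV as in PRSS35, with a median ratio of 1.00, so the depths were alike. The liver genes were at 1 FPKM or more in both libraries for 9 of 10 markers, although ALB stood at only 4.05 and 5.21 FPKM and FGB at 0.598 and 0.54. Their summed level was 8609 FPKM in EV and 9786 in PRSS35. The sum joins markers with higher and markers with lower values in PRSS35, so it gives no common direction. The 11 markers of blood cells, endothelium and fibroblasts with a locus of their own did not exceed 1.02 FPKM in EV or 1.27 in PRSS35, both PDGFRB, and PTPRC, CD3E and DCN were listed at 0 in both libraries. CD68 could not be read because its locus is joined with MPDU1.

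Of the 39 genes, 37 had a mean of at least 1 FPKM and were counted as expressed, as were 10133 of all genes. Most stood slightly higher in the PRSS35 library. Their median log2 change was 0.21, ranging from -1.40 to 0.57, against a median of 0.06 over all expressed genes. Of the 37, 33 had the higher value in PRSS35 cells, as did 6149 of the 10133 expressed genes. Of these 33, CANX, SDF2L1, XBP1 and MBTPS2 turned to the lower side when the median gene or the upper quartile was set equal between the libraries. Beyond their intervals, 23 of the 37 were higher, when 24.7% of all expressed genes were, and 1 was lower, when 14.3% of all were. EIF2AK3, among the 23, reached a mean of 1 FPKM only through its PRSS35 value. The differences were small. None of the 37 was higher by 2-fold or more, a change seen in 1.89% of all expressed genes, and only ERP44 was lower by that much, against 1.84%. At 1.3-fold, 3 genes were higher (CALR, PDIA4 and MBTPS1), against 10.3% of all genes, and ERP44 was lower, against 6.7%. The share of members past a fixed fold was thus near that of all genes, while the share beyond their intervals was larger. The members were also more abundant, with a median of 33.4 FPKM in EV against 9.40 FPKM for all expressed genes, and the part of abundance in the interval counts was not tested. Together the 37 genes summed to 4559 FPKM in EV and 5369 FPKM in PRSS35, 1.18 times as much. The sum over all expressed genes was 0.969 times as much. Abundant genes weigh most in such sums, here PPIB at 1021 and 1239.8 FPKM and CALR at 525 and 724 FPKM.

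The count beyond intervals depends on scaling. With the upper quartile of the libraries set equal, 14 members were higher and 3 were lower (DNAJC10, ERP44 and DERL2). Of the members called in either direction, the share called higher thus went from 95.8% to 82.4%. The 9 members whose higher call was lost were CRELD2, DNAJB11, PDIA5, ERP29, ATF6B, ERN1, EIF2AK3, EDEM1 and VCP. In that setting 17.4% of all expressed genes were higher and 19.9% lower.

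**Figure D2:**
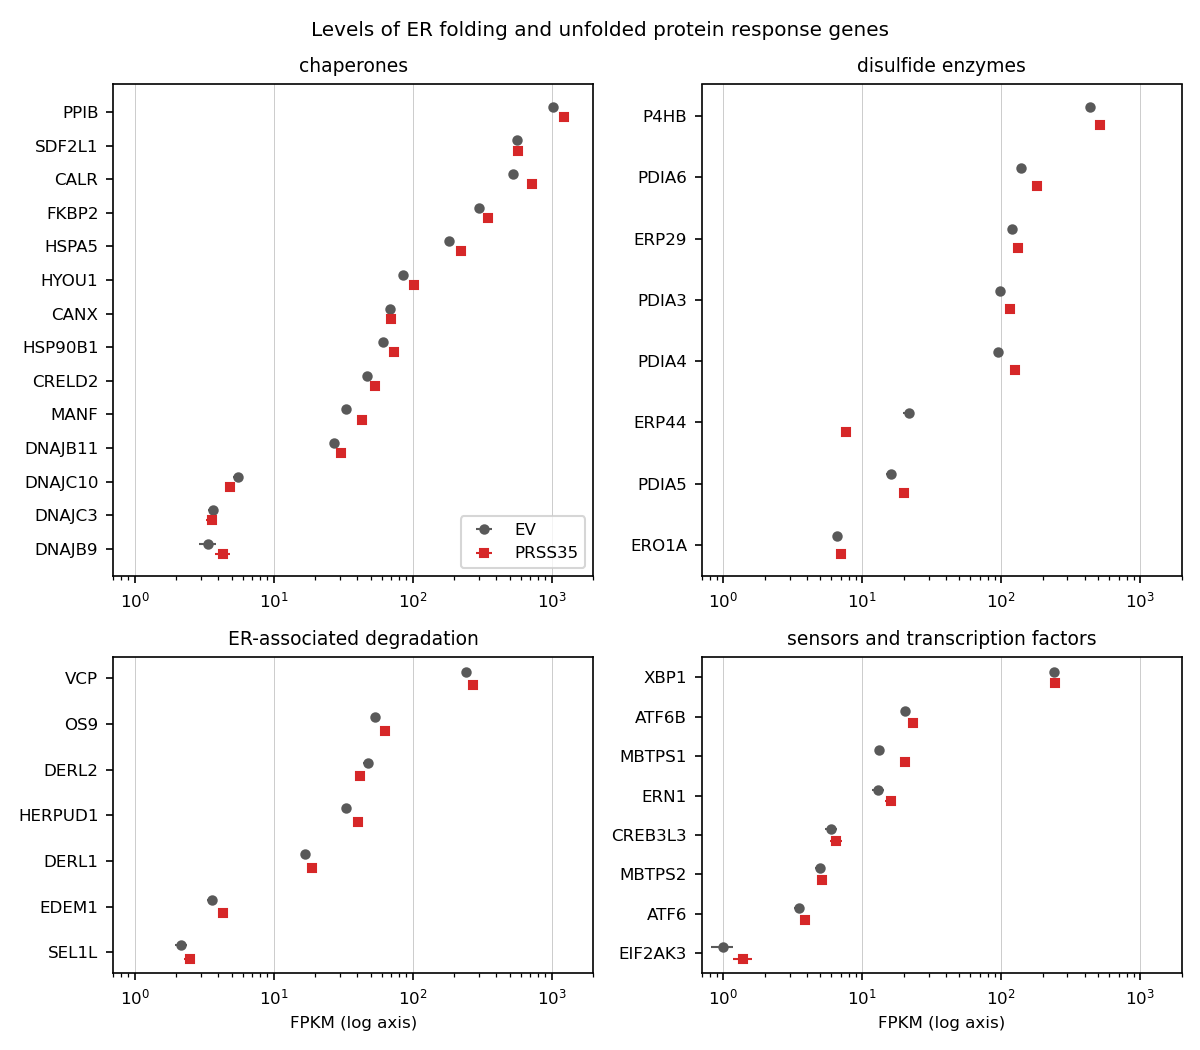
Level of the 37 expressed genes in the EV library (grey circles) and the PRSS35 library (red squares), in FPKM on a log axis, in 4 panels by role and ordered by the EV level. Bars are the Cufflinks bounds, often narrower than the mark, and most red marks lie just to the right of the grey ones, with ERP44 the clear exception at 21.7 and 7.59 FPKM.

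Among the chaperones, 9 of 14 were higher beyond their intervals and 0 were lower, with a median log2 change of 0.24. Of all expressed genes 24.7% were higher and 14.3% lower. With upper quartile scaling 7 of the 14 were higher and 1 (DNAJC10) was lower, against 17.4% and 19.9% of all. HSPA5, the main HSP70 of the ER and the protein that holds the sensors inactive, lies on chromosome 9 of hg19 from 127997127 to 128003666. It stood at 182 FPKM in EV (bounds 180 to 185) and 222 FPKM in PRSS35 (bounds 219 to 225), a log2 change of 0.28. HSP90B1, the ER form of HSP90, was at 61.8 FPKM (bounds 58.6 to 64.9) and 73.6 FPKM (bounds 70.0 to 77.2), a log2 change of 0.25, at a locus joined in both libraries with the microRNA gene MIR3652. Both were higher in PRSS35 cells without overlap.

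CALR and CANX, the soluble and the membrane-bound lectin of the same folding cycle, differed in their values. CALR, on chromosome 19 from 13049414 to 13055304, had the largest log2 change of the chaperones, 0.46, from 525 FPKM (bounds 519 to 531) to 724 FPKM (bounds 693 to 755). CANX was at 68.7 FPKM (bounds 66.2 to 71.3) and 70.6 FPKM (bounds 67.4 to 73.8), and its intervals overlapped. The CALR locus kept its annotation in EV and was assembled from the reads in PRSS35, whereas that of CANX was assembled in both. Of 1096 expressed genes assembled in PRSS35 only, 20.5% were higher by 1.3-fold or more. The part of assembly in the CALR value was not tested.

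The partners of HSPA5 were not uniform either. HYOU1, which exchanges its nucleotide, was at 84.9 FPKM in EV and 102 FPKM in PRSS35, a log2 change of 0.26. Among the J proteins, which hand clients to HSPA5, DNAJB11 was higher beyond its intervals, at 27.1 FPKM and 30.6 FPKM. DNAJB9 was at 3.37 FPKM (bounds 2.91 to 3.83) and 4.34 FPKM (bounds 3.81 to 4.87), intervals that overlapped by a small margin. DNAJC3 had nearly the same value in the libraries, 3.66 FPKM and 3.59 FPKM. DNAJC10, a J protein that also reduces disulfides, had the lower value in PRSS35, 4.83 FPKM against 5.57 FPKM, with overlapping intervals. SDF2L1, which works with DNAJB11, was among the most abundant of the members at 562 FPKM in EV and 579 FPKM in PRSS35, and its intervals overlapped.

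The remaining folding helpers were all higher beyond their intervals. MANF, a small protein that is secreted under ER stress, went from 33.4 FPKM (bounds 30.9 to 35.9) to 43.3 FPKM (bounds 40.5 to 46.2), a log2 change of 0.36. CRELD2, also a stress-induced secreted protein, went from 46.8 to 53.9 FPKM. PPIB and FKBP2, prolyl isomerases of the ER, were at 1021 and 299 FPKM in EV and at 1239.8 and 349 FPKM in PRSS35. PPIB was the most abundant of all members, at rank 119 among expressed genes in EV and rank 91 in PRSS35.

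Of the 8 disulfide enzymes, 6 were higher beyond their intervals (24.7% of all expressed genes), 1 was lower (14.3% of all) and 1 overlapped. With upper quartile scaling 4 were higher and 1 (ERP44) was lower, against 17.4% and 19.9% of all. The median log2 change of the 8 enzymes was 0.23. P4HB, the founding disulfide isomerase and a subunit of collagen prolyl hydroxylase, was the most abundant of them at 436 FPKM in EV (bounds 417 to 454) and 515 FPKM in PRSS35 (bounds 493 to 537). PDIA4 had the largest change upward, 0.39 on the log2 scale, from 95.2 FPKM (bounds 93.1 to 97.4) to 125 FPKM (bounds 123 to 128), at a locus on chromosome 7 that kept its annotation in both libraries. PDIA6, which also damps PERK and IRE1, followed with a log2 change of 0.37, from 139 to 181 FPKM. PDIA3, the isomerase that works with calnexin and calreticulin, was at 98.7 and 115 FPKM, and PDIA5 at 16.2 and 19.9 FPKM. ERP29, a family member without the active cysteines, was at 119 and 133 FPKM, and its bounds of 125 in EV and 126 in PRSS35 barely cleared each other.

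The last members of the group are the oxidase ERO1A and its retrieval factor ERP44. ERO1A, which recharges P4HB, was at 6.64 FPKM (bounds 6.15 to 7.13) and 7.08 FPKM (bounds 6.66 to 7.49), which overlap. ERP44, which retrieves ERO1A and unassembled clients from the Golgi, was at 21.7 FPKM in EV (bounds 19.8 to 23.6) and 7.59 FPKM in PRSS35 (bounds 7.13 to 8.05), a log2 change of -1.40. Its locus on chromosome 9, from 102741463 to 102861334, was assembled from the reads in EV and kept its annotation in PRSS35. Among 1025 expressed genes assembled in EV only, 4.1% had a PRSS35 value lower by at least 2-fold. The part of assembly in the ERP44 value was not tested.

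**Figure D3:**
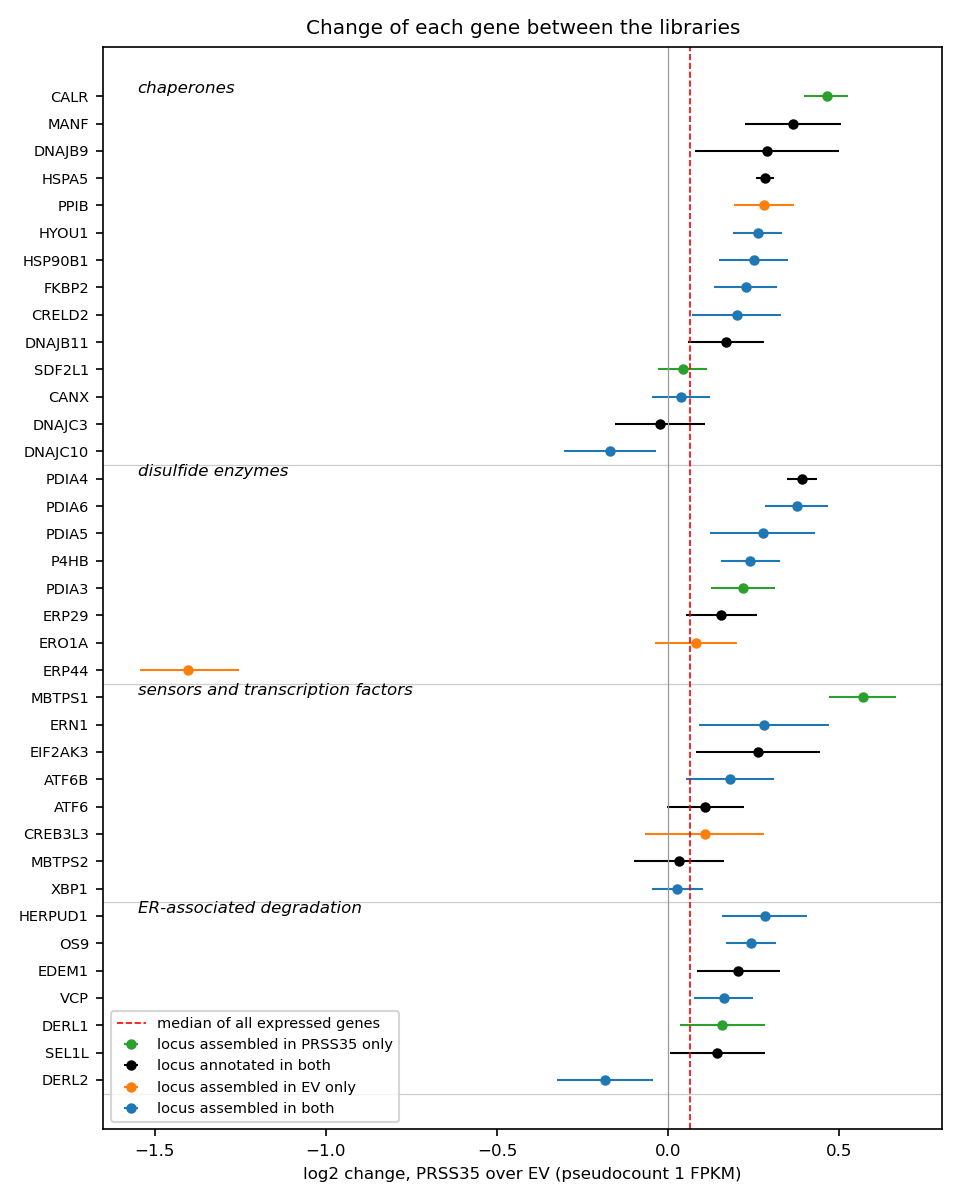
Log2 change of each of the 37 expressed genes (PRSS35 over EV, 1 FPKM added), in blocks by role. Bars combine the Cufflinks bounds of both libraries, colours show in which libraries the locus was assembled from the reads, and the dashed line marks the median of all expressed genes, 0.06, with ERP44 at -1.40 far to the left and MBTPS1 at 0.57 farthest to the right.

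The sensors and transcription factors were expressed at lower levels than the chaperones. Their median was 9.49 FPKM in EV, against 65.3 FPKM. Beyond their intervals 4 of the 8 genes of this group were higher and 0 lower, against 24.7% and 14.3% of all expressed genes. The median log2 change of the group was 0.14. With upper quartile scaling the count of higher genes in the group went from 4 to 1, the site-1 protease MBTPS1. In that setting 17.4% of all expressed genes were higher. EIF2AK3, the PERK kinase that slows translation, was the lowest of all expressed members, at 0.996 FPKM in EV (bounds 0.819 to 1.17) and 1.39 FPKM in PRSS35 (bounds 1.18 to 1.60). With an EV value under 1 FPKM, EIF2AK3 passed the filter on the mean only through its PRSS35 value. ERN1, the IRE1 kinase and nuclease, was at 13.02 FPKM (bounds 11.7 to 14.4) and 16.0 FPKM (bounds 14.5 to 17.5). Both were higher beyond their intervals, by small margins.

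ATF6 was at 3.50 FPKM in EV and 3.85 FPKM in PRSS35 with overlapping intervals, while its paralog ATF6B was at 20.2 FPKM (bounds 18.9 to 21.6) and 23.1 FPKM (bounds 21.6 to 24.6), separated by less than the rounding of these bounds. XBP1, the mRNA that IRE1 splices, was abundant and nearly equal, at 239 FPKM (bounds 231 to 247) and 243 FPKM (bounds 234 to 253). Gene-level FPKM adds the spliced and unspliced forms, so the splicing of XBP1 was not measured here. CREB3L3, a liver-enriched factor released from the membrane like ATF6, was at 5.96 and 6.50 FPKM with overlapping intervals.

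The proteases that cut ATF6 differed in value. MBTPS1, the site-1 protease on chromosome 16, was at 13.3 FPKM in EV (bounds 12.7 to 13.9) and 20.2 FPKM in PRSS35 (bounds 19.1 to 21.3), the largest upward log2 change of all members, 0.57. MBTPS2, the site-2 protease on the X chromosome, was at 4.97 and 5.10 FPKM with overlapping intervals. The MBTPS1 locus kept its annotation in EV, ending at 84150548, and was assembled in PRSS35, ending at 84151779. Of 1096 expressed genes assembled in PRSS35 only, 20.5% were higher by 1.3-fold or more, and the part of assembly in the MBTPS1 value was not tested.

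Of the 9 genes of ER-associated degradation, 7 were expressed, with a median log2 change of 0.16. Beyond their intervals 4 of the 7 were higher and 0 lower, against 24.7% and 14.3% of all expressed genes. With upper quartile scaling 2 were higher (HERPUD1 and OS9) and 1 was lower (DERL2), against 17.4% and 19.9% of all. HERPUD1, a scaffold of the degradation complex, was at 33.1 FPKM (bounds 31.0 to 35.2) and 40.5 FPKM (bounds 38.0 to 42.9), a log2 change of 0.28. EDEM1 and OS9, which mark and read the sugars of misfolded glycoproteins, were at 3.61 and 53.7 FPKM in EV and at 4.32 and 63.8 FPKM in PRSS35. VCP, the ATPase that pulls clients into the cytosol, was the most abundant of the group at 244 FPKM (bounds 233 to 254) and 273 FPKM (bounds 261 to 284).

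The remaining genes of the group had overlapping intervals or were listed at 0. SEL1L, the adaptor of the ligase, was at 2.16 and 2.50 FPKM, and the derlin DERL1 was at 16.7 and 18.8 FPKM. DERL2 was one of the few members with a lower value in PRSS35, 41.6 FPKM against 47.4 FPKM. SYVN1, the ubiquitin ligase itself, and DERL3 were listed at 0 in both libraries, at loci assembled from the reads in both. The SYVN1 locus overlaps the end of MRPL49 by 91 bases, a gene at 151 FPKM in EV and 167 FPKM in PRSS35. The DERL3 locus overlaps SMARCB1, at 156 and 157 FPKM, by 16 bases. An exact 0 in these tables can be a failed estimate, which cannot be told apart from absent RNA, and whether the overlap bears on the zeros was not tested.

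Since assembly differed between the libraries for 9 members, the 12 members whose locus kept its annotation in both were read on their own. They are HSPA5, DNAJB9, DNAJB11, DNAJC3, MANF, PDIA4, ERP29, ATF6, EIF2AK3, MBTPS2, SEL1L and EDEM1. In this subset 11 of 12 had the higher value in PRSS35, as did 1557 of the 2390 expressed genes of that kind. The median log2 change of the 12 was 0.19, against 0.08 for all expressed genes of that kind. Beyond their intervals 7 of the 12 were higher and 0 lower, when 23.5% of such genes were higher and 6.86% lower. EIF2AK3, among the 7, passed the filter on the mean only through its PRSS35 value. With upper quartile scaling 3 of the 12 were higher (HSPA5, MANF and PDIA4) and 0 lower. In that setting 363 of 2379 expressed genes of that kind were higher and 271 lower. Without that scaling, the 12 members together summed to 1.21 times as much FPKM in PRSS35 as in EV. All expressed genes of that kind summed to 1.06 times as much. HSPA5 and PDIA4 had the narrowest bounds of the 12 members, within 1.39% and 2.27% of their EV values. For the 16 expressed members assembled in both libraries the median was 0.23, for the 5 assembled in PRSS35 only 0.22, and for the 4 assembled in EV only 0.09. The medians over all expressed genes of these kinds were 0.04, 0.15 and 0.03, in the same order.

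The members with an ER stress element were then set beside those without. The 10 members with either form had log2 changes from 0.03 (XBP1) to 0.46 (CALR) with a median of 0.26, and 7 of them were higher beyond their intervals and 0 lower. The 3 that overlapped were CANX, SDF2L1 and XBP1. Of the 26 members with a window but neither form, 25 were expressed, with a median of 0.18, 15 higher and 1 lower. Of all expressed genes 24.7% were higher and 14.3% lower. After upper quartile scaling 6 of the 10 were higher and 0 lower, and 7 of the 25 were higher and 3 lower. In that setting 17.4% of all expressed genes were higher and 19.9% lower. The element was thus found both in genes that were higher and in genes with nearly equal values. Beyond the members, 34 gene symbols had either form, of which 16 were expressed in PLC cells, with a median log2 change of 0.03, 3 higher and 3 lower. The shorter motif TGACGTG, tied to ATF6 and XBP1 binding, was in 1.97% of windows and in 3 members (HYOU1, DNAJC10 and VCP), whose log2 changes were 0.26, -0.17 and 0.16. In HYOU1 it overlaps the upstream element. A match in these windows is a description and was not tied to binding.

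The medians of further genes of the pathway lay between those of the members and of all genes. Of 33 other ER folding genes, 31 were expressed, with a median log2 change of 0.16. Beyond their intervals 14 were higher and 1 lower, against 24.7% and 14.3% of all expressed genes. The counts were 11 and 4 with upper quartile scaling, against 17.4% and 19.9% of all. The largest changes upward were in SEC63, a J protein of the translocon, from 5.08 to 10.2 FPKM, DNAJB14, from 0.472 to 1.65 FPKM, and UGGT2, a glucosyltransferase that senses folding, from 0.799 to 1.81 FPKM. The SEC63 and UGGT2 loci were assembled in PRSS35 only. DNAJB14 and UGGT2, both among the 14, were under 1 FPKM in EV and passed the filter on the mean only through their PRSS35 value. DNAJC1 was the gene that was lower, at 9.53 and 7.86 FPKM. In this list 4 genes were read from loci joined with neighbours.

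Of 27 other degradation genes, 26 were matched and 24 were expressed, with a median of 0.11. Beyond their intervals 9 were higher and 3 lower, against 24.7% and 14.3% of all expressed genes. The counts were 7 and 3 with upper quartile scaling, against 17.4% and 19.9% of all. HERPUD2 was at 3.70 FPKM in EV and 5.21 FPKM in PRSS35, and ERLIN2 at 6.02 and 7.48 FPKM. AUP1 was lower, at 295 and 236 FPKM, as was the mannosidase MAN1B1, at 86.6 and 78.4 FPKM. The ligase RNF139 was at 3.96 FPKM in EV and listed at 0 in PRSS35, which may be a failed estimate. Its locus was assembled in EV only, and it passed the filter on the mean only through its EV value. UBE2G2 was not compared because its locus was joined with SUMO3 in 1 library.

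Of 22 further regulators and genes of the PERK arm, 19 were expressed, with a median log2 change of 0.10, close to the 0.06 of all expressed genes. Beyond their intervals 7 were higher and 2 lower, against 24.7% and 14.3% of all expressed genes. NUPR1, a stress-induced chromatin factor, was at 51.4 and 81.4 FPKM, the kinase EIF2AK1 at 32.8 and 46.4 FPKM, and ASNS, the asparagine synthetase that ATF4 controls, at 71.9 and 99.3 FPKM. In this list 5 genes were higher and 4 lower with upper quartile scaling, against 17.4% and 19.9% of all expressed genes. TRAF2, an IRE1 partner, and the kinase EIF2AK4 were lower, at 64.3 and 54.7 FPKM and at 11.6 and 9.82 FPKM. The following were picked after their values had been seen. ATF4, the factor made when PERK slows translation, was at 383 FPKM (bounds 366 to 400.2) and 441 FPKM (bounds 422 to 461). Its target DDIT3 was listed at 0 in both libraries, which may also be a failed estimate. Other genes of this list were not higher beyond their intervals. TRIB3 was at 47.8 FPKM in EV and 44.2 FPKM in PRSS35, and WFS1 at 33.2 and 30.7 FPKM, both with overlap. With upper quartile scaling TRIB3 and WFS1 were lower beyond their intervals. CHAC1, at 125 and 133 FPKM, and PPP1R15A had slightly higher values in PRSS35 with overlap. Of the receptors that return ER proteins from the Golgi, KDELR2 was at 60.2 and 80.3 FPKM and KDELR3 at 10.1 and 12.9 FPKM, both higher beyond their intervals (KDELR3 not with upper quartile scaling), and KDELR1 was at 175 and 183 FPKM with overlap.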

How the data were processed

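Total RNA of PLC cells with EV or PRSS35 was sequenced by the authors as 1 library each. The authors aligned reads to hg19 with TopHat2 2.1.0 and estimated transcripts with Cufflinks 2.2.1, the version the submitters' processing notes give for Cuffdiff, separately for each library. The annotation release is not given in the sources used here. The deposited values are FPKM per locus with lower and upper bounds.

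Loci on primary chromosomes were matched by gene name, and the FPKM of loci sharing a name was summed, with the distances to the bounds added in quadrature. Genes with a mean of at least 1 FPKM were expressed. Log2 ratios used a pseudocount of 1 FPKM, which understates changes of low genes. A locus with a Cufflinks identifier in place of the annotated one was called assembled. The implied fragments used for depth were whole within 0.01. Promoter windows were taken from the RefSeq table on GRCh38.p14, and the printed windows were located in GRCh37 by exact match. Genes were named from fixed lists, and in the lists of other pathway genes up to 3 in each direction were named by size. Some items that this rule or the marker lists would name are not reported here. The members and lists were chosen with earlier results of these data known. Only the 2-fold calls were tested on simulated data, with 3-fold changes put into values drawn around the EV library. Recovery of the interval and 1.3-fold calls was not checked there. Protein sequences were not used here. Python 3.11.15, numpy 2.4.6, pandas 2.3.3 and matplotlib 3.10.9 were used.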

Additional observations from a re-analysis of the deposited data

How the results depend on the processing

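The median log2 change of the 37 expressed members lay between 0.14 and 0.24 in all alternatives but 1, and all changes are limited by 1 library per condition. The exception was division of the FPKM by the total of all loci, which moved the median of all expressed genes to 0.68, a shift built into that scaling since log2 0.71 is added to every PRSS35 value before the pseudocount. With it the medians were 0.87 for the members, 0.92 for chaperones, 0.94 for disulfide enzymes, 0.74 for sensors, 0.84 for degradation genes, 0.79 for other folding genes, 0.80 for other degradation genes and 0.77 for other regulators. It gave 5 members at 2-fold, 36 higher at 1.3-fold and 36 higher beyond their intervals. Of 10605 expressed genes in that setting, 1343 changed by 2-fold, 9091 were higher at 1.3-fold and 86.6% were higher beyond their intervals. With the sum over named loci, 5 members were higher at 1.3-fold, against 1288 of 10162 expressed genes. With upper quartile scaling, 14 members were higher and 3 lower beyond their intervals, against 17.4% and 19.9% of all expressed genes, and the cause was not tested. With only genes annotated in both libraries, which leaves 12 members, 0 changed by 2-fold, and 1 was higher and 0 lower at 1.3-fold. Beyond their intervals 7 members were higher and 0 lower, and the median of the other degradation genes was 0.26 over 6 genes. Of 2390 expressed genes of that kind, 33 changed by 2-fold. At 1.3-fold 186 of the 2390 were higher and 79 lower, and beyond their intervals 561 and 164. None of the members called in the values as reported, by intervals or at 1.3-fold, changed direction in a setting that gave it a value. Among those not called there, CANX, SDF2L1, XBP1 and MBTPS2 stood below 0 after centring on the median gene and with upper quartile scaling, DNAJC3 stood above 0 with either sum, and DNAJC10 and DERL2, lower beyond their intervals with upper quartile scaling, were higher beyond them with the sum over all loci. No paired analysis was possible because EV and PRSS35 were sequenced as 1 library each, and for the same reason no library could be left out.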
